A study of Homo sapiens with 25 samples.

Results

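The interferon regulatory factors IRF1, IRF3, IRF7 and IRF9, their partner STAT2, and the interferon-stimulated genes ISG15, ISG20, IFITM1 and IFITM2 were followed in the human T-cell leukaemia line Jurkat at graded supplies of histidine. The 9 genes were taken by name, with earlier results of these data known, and all 9 reached a value of 10 in 2 or more libraries. They are 9 of the 22994 genes that did so and of 36755 genes in the table. The cells stood in medium with 100%, 50%, 25% or 12.5% histidine until day 3 or day 6, and in medium with 0% histidine until day 3. There were 3 libraries in each of these 9 groups, except for 2 at 100% on day 3 (replicates 1 and 3) and 2 at 12.5% on day 6. No agent other than the medium is named in the labels, all groups are the same line, and separate cultures are not stated for the replicates, so that p-values may measure technical spread alone.

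Interferon regulatory factors are transcription factors that share a DNA-binding domain. IRF3 and IRF7 are switched on by phosphorylation downstream of nucleic acid sensors and turn on the type I interferon genes, while IRF1 is an early interferon-induced activator that is also expressed without interferon. When interferon binds its receptor, JAK kinases phosphorylate STAT proteins, and STAT2 joins IRF9 in the complex ISGF3. ISGF3 binds the interferon-stimulated response element (ISRE) of genes such as ISG15 and the IFITM genes, and STAT dimers bind the gamma-activated sequence (GAS) of genes such as IRF1. Messenger RNA levels do not show the phosphorylation of these proteins.

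The promoters of the members whose level differed between histidine groups are shown first, because they hold the letters through which the factors of the list are known to act on its targets. RefSeq (GRCh38.p14) gave a window of 300 bases, 250 before and 50 after the start, for 6 of the 9 members, and IRF3, IRF7 and IFITM2 had no entry. Printed are IRF1 (chr5:132490724-132491023, minus strand), ISG15 (chr1:1013247-1013546, plus strand), ISG20 (chr15:88638766-88639065, plus strand) and IFITM1 (chr11:313790-314089, plus strand), each 5′ to 3′ on its own strand, with capitals for every match to the ISRE letters (GAAA, any 2 bases, GAAA) or the GAS letters (TTCNNNGAA).
IRF1: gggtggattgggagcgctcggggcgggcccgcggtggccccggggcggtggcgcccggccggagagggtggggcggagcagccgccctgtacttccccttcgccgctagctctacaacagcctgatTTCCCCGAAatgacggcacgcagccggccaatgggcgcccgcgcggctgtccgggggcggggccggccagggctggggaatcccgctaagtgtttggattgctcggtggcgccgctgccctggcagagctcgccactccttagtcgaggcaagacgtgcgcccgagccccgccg
ISG15: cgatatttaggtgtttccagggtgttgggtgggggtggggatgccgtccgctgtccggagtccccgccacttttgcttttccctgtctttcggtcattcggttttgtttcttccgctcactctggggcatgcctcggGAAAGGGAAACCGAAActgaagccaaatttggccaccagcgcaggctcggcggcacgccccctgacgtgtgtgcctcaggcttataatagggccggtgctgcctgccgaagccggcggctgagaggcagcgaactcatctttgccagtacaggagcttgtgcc
ISG20: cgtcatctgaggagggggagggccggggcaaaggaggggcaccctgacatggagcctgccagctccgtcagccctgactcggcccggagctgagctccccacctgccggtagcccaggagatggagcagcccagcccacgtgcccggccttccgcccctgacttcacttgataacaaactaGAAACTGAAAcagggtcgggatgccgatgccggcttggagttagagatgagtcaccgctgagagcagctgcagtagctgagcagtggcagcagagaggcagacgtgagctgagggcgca
IFITM1: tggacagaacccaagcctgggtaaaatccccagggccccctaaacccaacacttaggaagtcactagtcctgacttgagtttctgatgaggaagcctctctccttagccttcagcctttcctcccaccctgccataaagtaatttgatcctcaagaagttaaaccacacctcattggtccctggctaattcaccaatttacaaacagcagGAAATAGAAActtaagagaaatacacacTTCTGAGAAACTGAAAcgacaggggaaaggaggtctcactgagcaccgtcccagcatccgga

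ISG15 held 2 overlapping ISRE matches, starting 113 and 107 bases before the transcription start, and ISG20 held 1, starting 69 bases before it. IFITM1 held 2, starting 40 and 6 bases before the start, and the second of them overlapped a GAS match that starts 12 bases before it. IRF1 held a GAS match, TTCCCCGAA, starting 124 bases before its start, and no ISRE match. Of the 2 promoters not printed, IRF9 (chr14:24161015-24161314) held a GAS match and STAT2 (chr12:56360058-56360357) held neither. On either strand, the ISRE letters were found in 3.57% and the GAS letters in 7.66% of 35116 promoters of this length. The NF-kB letters (GGGA, any base, TTTCC, in 0.558% of promoters) and the letters TGATGNAA of the amino acid response element bound by ATF4 (3.62%) were found in none of the 6. A match is a description of these letters, not a measured binding site.

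Each value below is a normalized count as the authors deposited it. Library totals after this normalization lay between 18440000 and 21380000 (median 19860000), between 17445 and 19624 genes had a value of at least 10, and the read depth is unknown. All 17 T-cell markers listed were detected, and their summed level ran from 64490 to 114100. It lay at 68210 to 74630 at 100% on day 3 and at 107600 to 114100 at 0%. Markers of other cell types also moved with histidine: the summed B-cell list, mostly CD79A (192.2 to 655.4), was 219.9 to 273.9 at 100% and 606.2 to 667.5 at 0% on day 3, with MS4A1 and CD22 at 0 in 19 and 17 of 25 libraries. The endothelial list, mostly PECAM1, summed to 1583 and 1687 at 100% and to between 904.3 and 1105 at 0%. On day 6 the natural killer list (5 of 6 genes in the table, NCR1 at 0 in 9 libraries) summed to between 137.3 and 340.4 at 100%, 128.3 and 272.2 at 50%, 377.5 and 762.2 at 25% and 657.2 and 884.2 at 12.5%. Those at 25% and 12.5% did not overlap those at 50% and 100%. On day 3 it lay between 72.27 and 436.1 over all levels. In replicate 2 of 25% on day 6 the heart muscle list reached 50240, against a median of 53.07 over all libraries. The erythroid list (5 of 6 genes in the table) summed on day 3 to 281.1 and 527.5 at 100%, and to between 3530 and 5042 at 50%. At 25% it lay between 225.6 and 360.2, at 12.5% between 191.4 and 3832, and at 0% between 415.1 and 4933. On day 6 it lay between 229 and 285.8 at 100% and between 517.2 and 3842 at 50%. It then lay between 296.4 and 4949 at 25% and between 248 and 388.8 at 12.5%. Over the 25 libraries, which share their histidine groups, the log2 sum of the T-cell list correlated at 0.911 with ISG15 and 0.896 with IRF3 (0.608 and 0.377 for deviations from the group means). The B-cell list correlated at 0.871 with IRF3 and the endothelial list at -0.774 with IRF7 (0.307 and -0.211). The part of these in the results was not tested, and in bulk RNA fewer cells with a transcript and less of it per cell cannot be told apart.

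Differences are log2(value + 1) differences from limma over all 25 libraries, with Benjamini-Hochberg adjusted p-values over all 22994 genes, and a gene is said to rise or fall at an adjusted p under 0.05. Folds are ratios of group means. Comparisons with 100% on the same day share its libraries, so their results are not independent of each other.

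At 50% histidine no member passed the test, and at 25% 5 of the 9 rose on both days. Every IRF1 library at 50% still lay above every one at 100% of its day, with log2 differences of 0.133 and 0.221. Of the calls at 25%, that of ISG15 on day 3 and those of IRF1, IRF7 and ISG20 on day 6 were lost in some settings, given below. On day 3 the 5 that rose at 25% were IRF1, IRF3, IRF7, ISG15 and ISG20, against 19.5% of all genes changed (9.81% higher, 9.72% lower). The same 5 rose at 12.5%, where 26.2% of all genes changed (14.2% higher, 12% lower). With no histidine, IRF3, IRF7 and ISG15 were higher than at 100%, IFITM1 was lower, and 31% of all genes changed (14.8% higher, 16.1% lower). On day 6, IRF1, IRF3, IRF7, ISG15 and ISG20 rose at 25%, where 20.2% of all genes changed (11% higher, 9.24% lower). IRF3 and ISG15 rose at 12.5%, where 21.9% changed (10.8% higher, 11.1% lower). At 50%, 0 of 9 members and 0% of all genes changed on day 3, with 0 members and 1075 genes at an unadjusted p under 0.05 in limma. At 50% on day 6 it was 0 of 9 members and 0.00435% of all genes, with 1 member, IRF1, and 1098 genes at an unadjusted p under 0.05. IRF9, STAT2 and IFITM2 did not pass the test at any level against 100%. The members' mean levels lay at percentiles 50.4 to 84.1 of the genes tested, so all genes are not a background of like level. Since the list was chosen with earlier results known, the shares of all genes are given for description only.

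The median log2 difference of the 9 members from 100% on day 3 was 0.53 at 25%, 0.46 at 12.5% and 0.33 at 0%. The median over all genes tested was -0.0036, -0.037 and -0.016 in the same comparisons. On day 6 the members' median was 0.39 at 25% and 0.24 at 12.5%, against -0.021 and -0.0037 over all genes. When each library was scaled to the same total, the share of higher genes among those changed at 25% on day 3 was 63.31% in place of 50.24%, with the members' calls there unchanged.

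**Figure D1:**
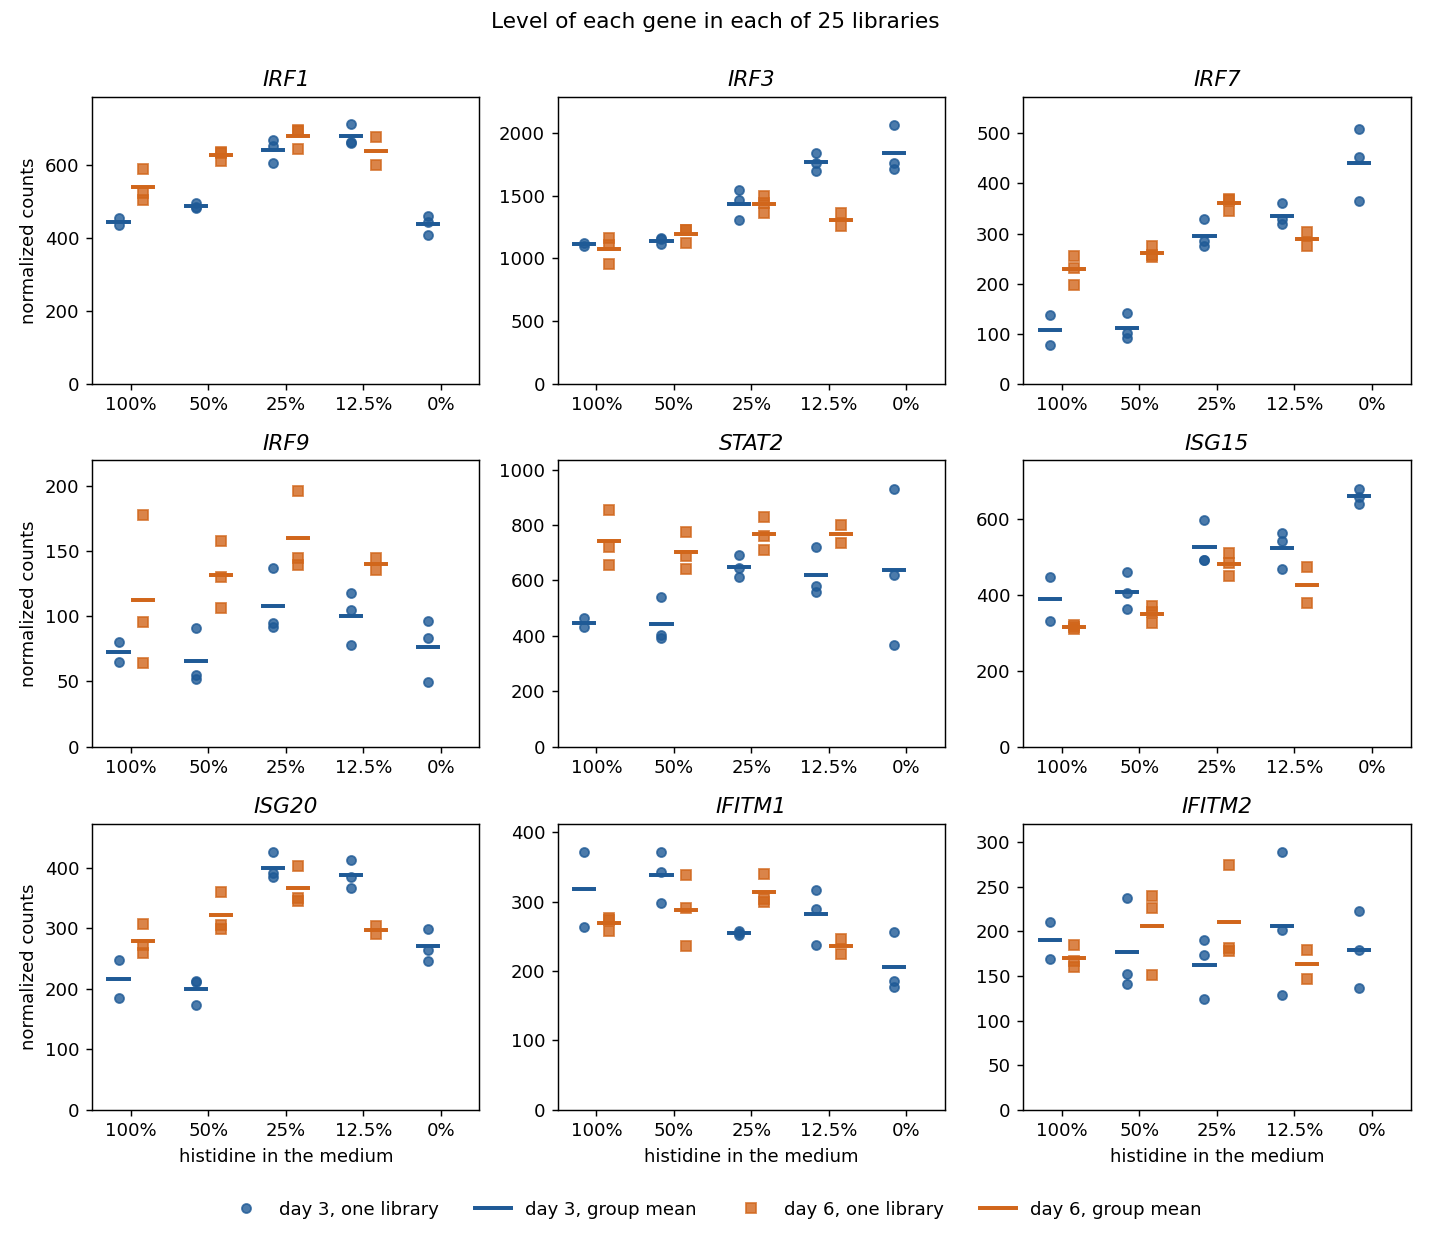
Normalized counts (vertical axis, from 0) of the 9 genes against histidine in the medium, each point 1 library (day 3 circles, day 6 squares) and each bar a group mean. IRF7 climbs from 77.57 and 136.8 at 100% to at least 364.6 at 0% on day 3, while IRF1 and ISG20 are high at 25% and 12.5% and low again at 0%.

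IRF7, the factor that amplifies type I interferon production, had the largest log2 difference of the 9 at 25%, 12.5% and 0% on day 3. Its gene lies at chr11:612553-615999 on the minus strand (GENCODE 29, GRCh38), and none of its 31-base words is shared with another gene. On day 3 it stood at 136.8 and 77.57 at 100% histidine, at 90.71, 101.8 and 141.9 at 50%, and at 329.4, 274.2 and 284.4 at 25%. At 12.5% it stood at 328.4, 361.4 and 318.1, and at 0% at 508.3, 452.6 and 364.6. All 9 libraries at 25% or less lay above all 5 at 50% or 100%. The rise from 100% was 2.76-fold at 25% (log2 1.51, SE 0.20, adjusted p = 2.41e-06) and 3.13-fold at 12.5% (1.69, SE 0.20, adjusted p = 2.43e-07). At 0% it was 4.12-fold (2.08, SE 0.20, adjusted p = 4.4e-09).

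Most of the day 3 rise in IRF7 fell between 50% and 25%. That step was 1.42 on the log2 scale (SE 0.18, adjusted p = 7.33e-07), and in it IRF1, IRF3, IRF7, ISG15 and ISG20, 5 of 9 members, rose, against 23.8% of all genes changed (11.4% higher, 12.5% lower). Scaling the libraries to the same total took the share of higher genes among those from 47.71% to 63.99%. The steps from 25% to 12.5% (0.185, SE 0.18) and from 12.5% to 0% (0.38, SE 0.18, adjusted p = 0.139) did not pass.

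On day 6 every IRF7 library at 100% lay above those of day 3. IRF7 was at 231.4, 255.1 and 197.7 at 100%, 275, 253.1 and 257.9 at 50%, 368.7, 367.3 and 344.8 at 25%, and 303 and 274.2 at 12.5%. The 25% libraries were the highest and did not overlap those at any other level of that day. IRF7 was 1.58-fold higher at 25% than at 100% (log2 0.665, SE 0.18, adjusted p = 0.00756), and the call was lost without replicate 3 of 100% (adjusted p = 0.0525), with library position (the submitters' library number modulo 8) in the fit (0.0972) and without 3 libraries of day 6 together (replicate 3 of 100%, replicate 3 of 50% and replicate 2 of 25%, 0.115). At 12.5% the difference was 0.34 (95% interval from -0.064, adjusted p = 0.253).

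IRF3, the constitutive factor that acts first after nucleic acid sensing, rose on day 3 from 50% to 25% and again to 12.5%. It stood at 1102 and 1122 at 100%, 1159, 1115 and 1152 at 50%, and 1543, 1302 and 1463 at 25%. It then stood at 1839, 1763 and 1697 at 12.5% and 2061, 1760 and 1711 at 0%. The 25% libraries lay above every 50% and 100% library and below every 12.5% library, and those at 12.5% and 0% overlapped. IRF3 was 1.29-fold higher than at 100% at 25% (log2 0.37, SE 0.092, adjusted p = 0.00482), 1.59-fold at 12.5% (0.67, SE 0.092, adjusted p = 2.9e-06) and 1.66-fold at 0% (0.72, SE 0.092, adjusted p = 5.41e-07).

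IRF3 was the only member to change between 25% and 12.5% on day 3 (0.30, SE 0.082, adjusted p = 0.0209), where 8.22% of all genes did (5.41% higher, 2.81% lower). That call was lost without replicate 2 of 25% and without replicate 1 or 2 of 12.5%, under total-sum or quantile scaling and with library position in the fit. Under the deposited scaling 65.8% of the genes changed in this step were higher, against 35.35% when libraries were scaled to the same total. On day 6, IRF3 stood at 958.6, 1162 and 1105 at 100%, 1124, 1225 and 1227 at 50%, 1439, 1500 and 1360 at 25%, and 1361 and 1258 at 12.5%. The levels at 25% and 12.5% overlapped each other and lay above all at 100%. The difference from 100% was 0.42 at 25% (SE 0.082, adjusted p = 0.000433) and 0.29 at 12.5% (SE 0.092, adjusted p = 0.0238). The second of these was lost without replicate 1 of 100% (adjusted p = 0.141) and without either 12.5% library (0.224 and 0.0521), and with the compared groups alone (0.0522) or library position in the fit (0.0982). IRF3 (chr19:49659569-49665875, minus strand) overlaps BCL2L12 on the opposite strand by 734 bases and shares 16.1% of its 31-base words with it, and whether the authors' counting used strand is not given in the sources used here.

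IRF1, an activator of interferon-stimulated and antigen presentation genes, rose at intermediate restriction and was back at the 100% level at 0%. On day 3 it stood at 435.1 and 453.4 at 100%, 485.4, 495.6 and 480.4 at 50%, and 604.5, 652.2 and 669 at 25%. At 12.5% it stood at 663.1, 659.7 and 711.8, and at 0% at 443.8, 459.1 and 407.4. Every 25% and 12.5% library lay above every other library of that day, and those at 0% overlapped those at 100%. The difference from 100% was 0.53 at 25% (SE 0.096, adjusted p = 0.00018) and 0.61 at 12.5% (SE 0.096, adjusted p = 1.94e-05). At 0% it was -0.026 (SE 0.096, 95% interval from -0.22, adjusted p = 0.885).

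The fall of IRF1 from 12.5% to 0% was 0.635 on the log2 scale (SE 0.086, adjusted p = 2.87e-06). In that step 3 of the 9 members fell, IRF1, ISG20 and IFITM1, none rose, and 21% of all genes changed (8.5% higher, 12.5% lower). ISG20 was lost there with library position in the fit. On day 6, IRF1 stood at 587.3, 503.6 and 524 at 100%, 610.1, 633 and 636.1 at 50%, 696.8, 692.8 and 643.7 at 25%, and 598.9 and 676.4 at 12.5%. All libraries below 100% lay above all at 100%. IRF1 rose at 25% (0.33, SE 0.086, adjusted p = 0.00562), and the difference at 12.5% was 0.24 (SE 0.096, adjusted p = 0.0721). The first was lost with the compared groups alone (0.0516), with library position in the fit (0.115) and without the same 3 libraries of day 6 (0.0758). The second passed without replicate 1 of 100% (0.0362), with a filter at a mean of 50 (0.0371), under quantile normalization (0.0366) and without trend and robust moderation (0.0402). IRF1 lies at chr5:132481609-132490798 on the minus strand, and 28.5% of its 31-base words are shared with other genes, mostly C5orf56 on the opposite strand.

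ISG20, a 3′ to 5′ exonuclease that degrades single-stranded RNA, was likewise high at 25% and 12.5% on day 3 and lower at 0%. It stood at 184.6 and 247.6 at 100%, 212.9, 211.6 and 174 at 50%, and 385, 390.5 and 425.4 at 25%. It stood at 366.9, 413.4 and 385.4 at 12.5% and at 264.3, 246.2 and 299 at 0%. The 6 libraries at 25% and 12.5% lay above all others of that day, and 0% overlapped 100%. The rise from 100% was 1.85-fold at 25% (log2 0.90, SE 0.145, adjusted p = 4.16e-05) and 1.8-fold at 12.5% (0.86, SE 0.145, adjusted p = 5.01e-05). The fall from 12.5% to 0% was 0.527 on the log2 scale (SE 0.13, adjusted p = 0.00373). At 0% the difference from 100% was 0.33 (SE 0.145, adjusted p = 0.0903), and it passed without replicate 3 of 100% (0.54, adjusted p = 0.0229) and under quantile normalization (0.49, adjusted p = 0.0113).

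On day 6, ISG20 moved over a narrower range. It stood at 272.6, 258.9 and 307.3 at 100%, 299, 360.5 and 305.1 at 50%, 402.7, 345.7 and 349.7 at 25%, and 303.5 and 291.1 at 12.5%. Those at 25% lay above all at 100% and 12.5%, and those at 12.5% lay within the range at 100%. ISG20 was 1.31-fold higher at 25% (log2 0.39, SE 0.13, adjusted p = 0.0344). That call was lost without replicate 1 or 2 of 100% (adjusted p = 0.0922 and 0.129) or replicate 1 of 25% (0.146), with no filter on low values (0.0659), with the compared groups alone (0.0785) and with library position in the fit (0.143). ISG20 lies at chr15:88636153-88656483 on the plus strand.

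ISG15, a ubiquitin-like protein that is attached to other proteins after interferon, rose at all 3 strong levels of restriction. On day 3 it stood at 332.5 and 447.3 at 100%, 459.7, 404.3 and 364 at 50%, and 598.2, 493.3 and 492.3 at 25%. It stood at 543.4, 468 and 563.2 at 12.5% and at 659.7, 681 and 640 at 0%. The 0% libraries lay above all others, and those at 25% and 12.5% lay above all at 100% and 50%. ISG15 was 1.69-fold higher at 0% than at 100% (log2 0.77, SE 0.14, adjusted p = 6.09e-05). The differences at 25% (0.45, SE 0.14, adjusted p = 0.0202) and 12.5% (0.44, SE 0.14, adjusted p = 0.017) rested on replicate 1 of 100%. Without it they were 0.23 (adjusted p = 0.409) and 0.23 (adjusted p = 0.389). The call at 25% was also lost without replicate 1 of 25% (0.107), and that at 12.5% without replicate 1 or 3 of 12.5% (0.0519 and 0.0666). Both were lost with the compared groups alone (0.07 and 0.0675) and with library position in the fit (0.258 and 0.0981).

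On day 6, ISG15 stood at 321.5, 311.7 and 315.8 at 100%, 325.6, 355.2 and 372.1 at 50%, 510.3, 451.4 and 485.6 at 25%, and 475.3 and 378.7 at 12.5%. Every library at 25% or 12.5% lay above every library at 50% or 100%. ISG15 rose 1.52-fold at 25% (log2 0.605, SE 0.12, adjusted p = 0.000574) and 1.35-fold at 12.5% (0.42, SE 0.14, adjusted p = 0.0258). At 12.5% the call was lost without replicate 2 or 3 of 100% (adjusted p = 0.0606 and 0.0558) or replicate 1 of 12.5% (0.377), and without the 3 libraries of day 6 (0.0587). IRF3 and ISG15 were the 2 members that rose from 50% to 25% on day 6, where 20.9% of all genes changed (10.6% higher, 10.3% lower). In that step IRF3 was lost without replicate 1 of 50%, without replicate 1 or 2 of 25%, with the compared groups alone and without the 3 libraries of day 6, and ISG15 with library position in the fit. From 25% to 12.5% on day 6, 0 of 9 members and 0.874% of all genes changed in limma (0.204% higher, 0.67% lower), and 1 member, IFITM1, had an unadjusted p under 0.05. ISG15 lies at chr1:1001138-1014540 on the plus strand.

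**Figure D2:**
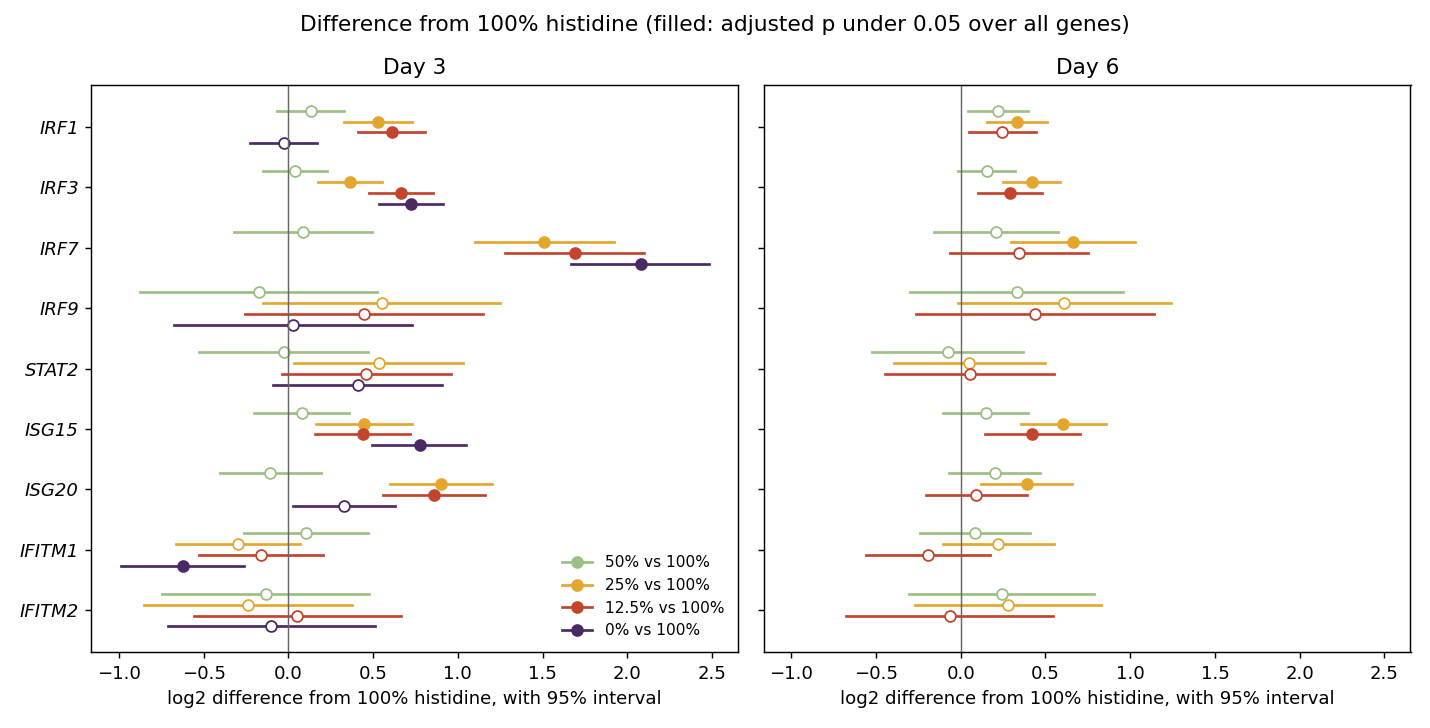
Log2 difference from 100% histidine of the same day (horizontal axis) with its 95% interval for each gene, by histidine level; filled points have an adjusted p under 0.05. The IRF7 points reach 1.51 to 2.08 on day 3 and stay at or below 0.665 on day 6, and the IFITM1 point at 0% is the only filled one below 0.

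The IFITM genes, which encode membrane proteins that block virus entry, rose at no level against 100%. IFITM1 stood at 263.5 and 371.9 at 100% on day 3, 372.3, 343.3 and 298.4 at 50%, and 257.9, 254.8 and 251.8 at 25%. It stood at 317.5, 289.9 and 238 at 12.5% and at 255.6, 185.2 and 176.4 at 0%. The 0% libraries lay below both at 100%. IFITM1 was lower at 0% than at 100% by a log2 difference of -0.62 (SE 0.18, adjusted p = 0.00767), a ratio of 0.647, and lower than at 12.5% (-0.46, SE 0.16, adjusted p = 0.038). The first call was lost without replicate 3 of 100% (-0.38, adjusted p = 0.238), under quantile normalization (0.069), with the compared groups alone (0.0508) and with library position in the fit (0.185). The second was lost in 10 settings, among them those without replicate 1 or 2 of 12.5% and without replicate 2 or 3 of 0%.

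On day 6, IFITM1 stood at 276.6, 257.7 and 273.3 at 100%, 235.8, 338.9 and 290.6 at 50%, 304.5, 299 and 339.8 at 25%, and 224.4 and 246.9 at 12.5%. The 25% libraries lay above and the 12.5% libraries below all at 100%, with differences of 0.22 (SE 0.16, adjusted p = 0.384) and -0.19 (SE 0.18, adjusted p = 0.523) that did not pass. IFITM2 ranged from 124.1 to 289 over the 25 libraries (median 179), its group means from 162.6 to 211.1, and neighbouring groups overlapped throughout. Its difference from 100% at 0% was -0.10 (SE 0.30, 95% interval from -0.71). The 2 genes are hard to separate: IFITM1 (chr11:313506-315272) lies inside the model of IFITM2 (chr11:307631-315272) on the plus strand. They share 333 words of 31 bases, 31% of those of IFITM1 and 22.9% of those of IFITM2, and IFITM3 shares words with both.

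STAT2 and IRF9, which act together in ISGF3, passed the test at no level against 100%. STAT2 stood at 432.9 and 462.7 at 100% on day 3, 391.1, 539.2 and 401.8 at 50%, and 643.3, 613.1 and 691.4 at 25%. It stood at 559.4, 720.4 and 578.5 at 12.5% and at 928.4, 365.3 and 619.9 at 0%. Those at 25% and 12.5% lay above both at 100%, while those at 0% spanned the whole range of the gene. The difference from 100% was 0.53 at 25% (SE 0.24, adjusted p = 0.137), 0.46 at 12.5% (adjusted p = 0.18) and 0.41 at 0% (adjusted p = 0.224). Without replicate 2 of 0%, the library at 365.3, all 3 passed (adjusted p = 0.0161, 0.0317 and 0.00127), and the first also passed without replicate 1 of 0% (0.0289). With the compared groups alone, the differences at 25% (0.00719) and 12.5% (0.0338) passed.

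On day 6, STAT2 ranged from 642.1 to 852.6 over all levels, and its difference from 100% was 0.050 at 25% (SE 0.21) and 0.054 at 12.5% (SE 0.24). IRF9 stood at 80.55 and 64.67 at 100% on day 3, 91.55, 95.14 and 137.3 at 25%, and 83.39, 49.61 and 96.09 at 0%. On day 6 it stood at 177.5, 64.34 and 95.74 at 100% and at 144.9, 139.3 and 195.9 at 25%. In the order of the 9 group means of IRF9, every pair of neighbours overlapped. Its largest difference from 100% was 0.61, at 25% on day 6 (SE 0.30, adjusted p = 0.176), and it passed without replicate 1 of 100% (1.00, adjusted p = 0.0215). IRF9 (chr14:24161053-24166565, plus strand) lies within a read-through gene model, with which it shares 45.2% of its 31-base words. STAT2 (chr12:56341597-56360155, minus strand) shares 5.84% of its words with other genes.

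Day 6 and day 3 were also compared at the same histidine level. At 100%, IRF7 was 2.13-fold higher on day 6 (log2 1.13, SE 0.20, adjusted p = 0.000414) and was the only member called, where 8.66% of all genes changed (2.93% higher, 5.73% lower). At 50% it was 2.35-fold higher (1.25, SE 0.18, adjusted p = 1.21e-05). IRF1 (0.36, SE 0.086, adjusted p = 0.00398), ISG20 (0.69, SE 0.13, adjusted p = 0.000428), IRF9 (1.01, SE 0.30, adjusted p = 0.0225) and STAT2 (0.67, SE 0.21, adjusted p = 0.0363) were also higher at 50%, where 16% of all genes changed (6.14% higher, 9.86% lower). At 25%, 0 of 9 members changed in limma, none with an unadjusted p under 0.05, against 11.8% of all genes (5.04% higher, 6.75% lower). At 12.5%, IRF3 was lower on day 6 (-0.43, SE 0.092, adjusted p = 0.0019), and 13.8% of all genes changed (3.56% higher, 10.2% lower).

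Scaling the libraries to the same total shifted these comparisons by over 0.1 on the log2 scale: the median of all genes moved from 0.020 to 0.134 at 100%, from 0.038 to 0.146 at 50% and from 0.033 to 0.136 at 12.5%. The share of higher genes among those changed went from 33.8% to 69.95%, from 38.38% to 65.57% and from 25.79% to 51.67%. At 100%, 4 members (IRF1, IRF7, STAT2 and ISG20) were then higher, and at 50% and 12.5% the calls were the same ones. The call of IRF7 at 100% was lost without replicate 3 of 100% on day 3, and that of IRF3 at 12.5% without replicate 2 of 12.5% on day 6. At 50%, IRF9 and STAT2 were both lost without replicate 1 of 50% on day 3 or replicate 2 or 3 of 50% on day 6, and STAT2 also with library position in the fit.

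Whether an effect of restriction differed between days was tested as an interaction. At 12.5%, the difference of IRF7 from 100% on day 6 (0.34, not passing) minus that on day 3 (1.69) was -1.35 (SE 0.28, adjusted p = 0.00567). For ISG20 it was 0.092 on day 6, not passing, and 0.86 on day 3, and the difference between them was -0.765 (SE 0.205, adjusted p = 0.0347). These were 2 of 9 members, against 3.64% of all genes (1.28% higher, 2.36% lower). At 25% the difference for IRF7 was -0.84 (SE 0.27, adjusted p = 0.068) and for ISG20 -0.51 (SE 0.195, adjusted p = 0.15), with 0 of 9 members and 4.72% of all genes changed in limma (2.71% higher, 2.01% lower) and 3 members at an unadjusted p under 0.05. When libraries were scaled to the same total, IRF7 passed at 25% (-0.94, adjusted p = 0.0388), and the share of higher genes among those changed was 32.89% in place of 57.46%. At 50%, 0 of 9 members and 0.00435% of all genes changed, with no member at an unadjusted p under 0.05. The effect on ISG15 at 12.5% differed between days by -0.017 (SE 0.19, 95% interval from -0.41 to 0.38).

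**Figure D3:**
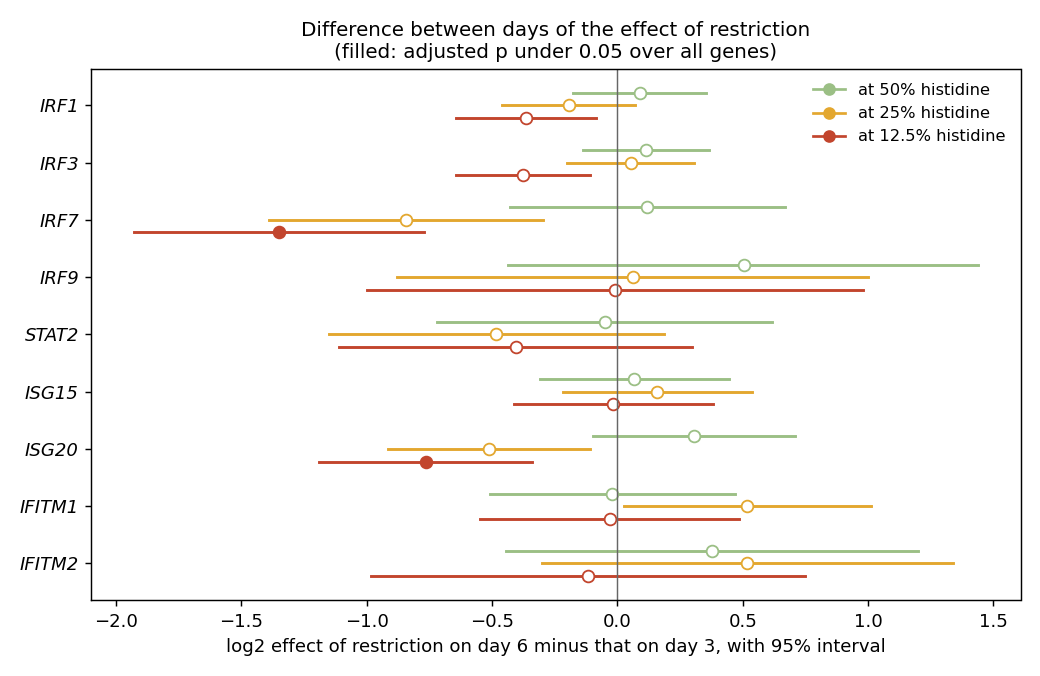
Effect of restriction on day 6 minus that on day 3, as a log2 difference with its 95% interval (horizontal axis), for each gene and histidine level; filled points have an adjusted p under 0.05. The IRF7 (-1.35) and ISG20 (-0.765) points at 12.5% are the filled ones, and all intervals at 50% cross 0.

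The order of the 9 group means differed between members. IRF7 was lowest at 100% and 50% on day 3 (107.2 and 111.5) and highest at 0% (441.8), with every pair of neighbours in that order overlapping except 50% on day 3 and 100% on day 6. For IRF3 the order ran from 100% on day 6 (1075) to 0% on day 3 (1844), with gaps below 12.5% on day 6 and below 12.5% on day 3. For ISG15 it ran from 100% on day 6 (316.3) to 0% on day 3 (660.2), and the latter stood apart. For IRF1 it ran from 0% on day 3 (436.8) to 12.5% on day 3 (678.2). For ISG20 it ran from 50% (199.5) to 25% (400.3), both on day 3, with all neighbours overlapping, and for IFITM1 from 0% on day 3 (205.7) to 50% on day 3 (338). Over the 9 group means, the 3 highest Pearson correlations among members were 0.922 between IRF3 and ISG15, 0.893 between IRF9 and STAT2 and 0.844 between IRF1 and ISG20. For deviations of the 25 libraries from their group means they were 0.249, 0.342 and 0.0513. These are descriptions, since the means share the libraries' scaling.

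Among 12377 genes with a mean of at least 50 in some group, those whose 9 group means followed each member most closely were read off by Pearson's correlation. IRF7 was followed most closely by LAIR1 (0.988), LINC02361 (0.98) and CSNK1A1 (0.979), and IRF3 by DNAJB12 (0.986), EOLA2 (0.979) and DUSP12 (0.976). ISG15 was followed by SH3D19 (0.98), LCK (0.979) and TIMM22 (0.972). IRF1 was followed by PTPDC1 (0.984), GSTCD (0.959) and TMOD3 (0.953), ISG20 by RALB (0.989), FAM167A (0.985) and ANKRD13A (0.972), and IFITM1 by IDH2 (0.963), SEMA6D (0.959) and TMEM74 (0.945). Over the 25 single libraries the correlation of ISG15 with SH3D19 was 0.446, against 0.939 with LCK, so closeness of means is not closeness in each library.

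The rest of the interferon pathway was read from 7 lists. Of 21 interferon genes listed, 2 were in the table. IFNG was the only one tested: it lay between 0 and 111.8 (median 8.983) and passed at no level against 100%. At 12.5% on day 6 it stood at 89.38 and 111.8, against 6.981 to 12.47 at 100% (log2 3.35), without passing, while between the days at 12.5% it was higher on day 6 (4.44). IFNL1 stayed at or below 7.587.

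The other interferon regulatory factors and their binding proteins had 7 tested genes, of which 1 rose and 0 fell at 0% on day 3 (14.8% and 16.1% of all genes), with 2 higher and 1 lower at 12.5% on day 6 (10.8% and 11.1%). IRF2, which competes with IRF1 for the same sites, rose from 468 to 622.1 at 0% (log2 0.41, SE 0.11, adjusted p = 0.00511), a call lost without replicate 1 of 100% (adjusted p = 0.152). It rose from 557.2 to 787.6 at 12.5% on day 6 (0.50, SE 0.11, adjusted p = 0.00131). IRF4, a lymphocyte factor induced by antigen receptor signals, was 4.65-fold higher at 12.5% on day 6 (78.65 and 82.06, against 15.02 to 21.36 at 100%), with an adjusted p of 0.00182. On day 3 at 0% its mean was 21.33, against 16.81 at 100%. The corepressor IRF2BP2 fell at 12.5% on day 6 (-0.27, adjusted p = 0.00298), a call lost without replicate 1 of 12.5% (0.0846).

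Among 16 receptors, JAK kinases and other STATs, 3 rose and 6 fell at 0% on day 3 (14.8% and 16.1% of all genes), and 2 rose and 2 fell at 12.5% on day 6 (10.8% and 11.1%). STAT4, which carries signals of interleukin-12 and type I interferon, was 3.5-fold higher at 0% (166.7 to 237.3, against 48.08 and 63.58), with an adjusted p of 0.000233. At 12.5% on day 6 it was 2.95-fold higher (adjusted p = 0.00128). STAT5A fell by 1.36 on the log2 scale at 0% (SE 0.225, adjusted p = 2.6e-05), and the interferon lambda receptor IFNLR1 by 1.35 (SE 0.23, adjusted p = 3.47e-05). TYK2, the kinase bound to IFNAR1, fell by 1.06 at 0% (adjusted p = 0.00235), a call lost without replicate 3 of 100% (0.0644), and by 0.745 at 12.5% on day 6 (adjusted p = 0.0367), a call lost without replicate 2 of 12.5% (0.555), without replicate 2 or 3 of 100% (0.112 and 0.0805), with no filter on low values (0.0662) and with the compared groups alone (0.145). The interferon gamma receptor chain IFNGR2 fell by 0.525 at 12.5% on day 6 (adjusted p = 0.00391), a call lost without replicate 1 of 12.5% (0.0514). At 0% on day 3 it fell by 0.473 (adjusted p = 0.00614), a call lost without replicate 3 of 100% (0.0632).

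Of 13 negative regulators, 3 rose and 3 fell at 0% on day 3 (14.8% and 16.1% of all genes), and 3 rose and 1 fell at 12.5% on day 6 (10.8% and 11.1%). The phosphatases PTPN6 (1.73-fold, adjusted p = 1.37e-10) and PTPN1 (1.4-fold, adjusted p = 9.27e-07) and the SUMO ligase PIAS4 (1.57-fold, adjusted p = 6.83e-08) rose at 0%. The same 3 rose at 12.5% on day 6, by 1.46-fold, 1.37-fold and 1.67-fold. CISH, which restrains STAT5, was lower at 0% (99.73 to 61.12, adjusted p = 0.0339), and 3 single libraries each ended that call (replicates 1 and 3 of 100%, 0.0595 and 0.235, and replicate 2 of 0%, 0.196). It was also lost with no filter on low values (0.0649), under quantile normalization (0.0779) and with the compared groups alone (0.122). SOCS2, of the same family of STAT inhibitors, fell by 0.419 at 12.5% on day 6 (adjusted p = 0.0341), a call lost without any of 4 of the 5 libraries compared. These were replicates 2 and 3 of 100% (adjusted p = 0.0703 and 0.101) and either 12.5% library (differences of -0.5 and -0.339). The call was also lost with no filter on low values (0.0552), under quantile normalization (0.0767) and without the 3 libraries of day 6 (0.102). At 25% on day 3 SOCS2 was higher (0.426, adjusted p = 0.0345), a call held in 28 of 36 settings.

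Of 18 nucleic acid sensors and adaptors, 4 rose and 3 fell at 0% on day 3 (14.8% and 16.1% of all genes), and 1 rose and 5 fell at 12.5% on day 6 (10.8% and 11.1%). MYD88, an adaptor of Toll-like receptors, rose at 0% from 1866 to 3070 (log2 0.72, SE 0.077, adjusted p = 3.29e-08) and at 12.5% on day 6 from 1715 to 2227 (0.38, SE 0.077, adjusted p = 0.000572). The DNA sensor IFI16 fell by 0.53 and 0.565 in these comparisons (adjusted p = 4.92e-07 and 4.17e-07). TRIM25, the ubiquitin ligase that activates RIGI, fell by 0.276 (adjusted p = 0.00133) and 0.573 (adjusted p = 1.77e-07). The RNA sensor RIGI was listed at 0 and 20.14 at 100% on day 3 and at 61.33 to 208 at 0%. Its call at 0% (adjusted p = 0.000286) was lost when only the compared groups were fitted (0.123), and on day 6 its mean was 157.7 at 100% and 120 at 12.5%. The endosomal RNA sensor TLR3 was lower at 0% on day 3 (63.96 to 30.26, adjusted p = 0.0498), a call lost in most of the 36 settings (without replicate 2 of 0%, 0.336). The endosomal DNA sensor TLR9 (-0.98, adjusted p = 0.00597) and the RIGI relative DHX58 (-0.58, adjusted p = 0.00119) fell at 12.5% on day 6, both lost without replicate 1 of 12.5% (0.12 and 0.0772).

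The largest list, 55 other interferon-stimulated effector genes, had more members lower than higher on day 3. At 0%, 8 rose and 14 fell, with a median of -0.16 against -0.016 over all genes, and 14.8% of all genes rose and 16.1% fell. The interferon-induced gene EPSTI1 was at 221.1 and 236.4 at 100% and at 40.04 to 65.37 at 0%, where it fell by 2.14 on the log2 scale (SE 0.24, adjusted p = 9.64e-08). OAS2, a sensor of double-stranded RNA, fell by 1.53 (SE 0.30, adjusted p = 0.000311), and the guanylate-binding protein GBP5 by 1.76 (SE 0.38, adjusted p = 0.000765). MX1, the classical interferon-induced GTPase, fell by 1.53 (SE 0.49, adjusted p = 0.0194), a call lost without replicate 3 of 100% (0.241) or replicate 1 of 0% (0.104) and with the compared groups alone (0.0668). With library position in the fit, IRF2 (0.0638), TYK2 (0.105), TRIM25 (0.0635), CISH (0.334) and GBP5 (0.0536) were lost at 0%. At 25% and 12.5% on day 3, 1 and 3 of the 55 rose, where 9.81% and 14.2% of all genes did, and 7 and 9 fell, where 9.72% and 12% did.

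On day 6 the same list had 8 genes higher and 4 lower at 12.5% (median 0.15, against -0.0037 over all genes), with 10.8% of all genes higher and 11.1% lower. IFIT2, which binds viral RNA, rose 2.08-fold (98.92 to 205.8, adjusted p = 0.000644), and SAMD9, a restriction factor of poxviruses, 1.68-fold (adjusted p = 0.00017). BST2, the tetherin that holds virions at the surface, rose from 86.06 to 156.4 (adjusted p = 0.0283), and SHFL, which blocks viral frameshifting, fell from 455 to 291.1 (adjusted p = 0.0365). On day 3 BST2 had been lower at 25% (-0.801, adjusted p = 0.0446), a call held in 19 of 36 settings. Its difference at 0% on day 3 was -0.51 (adjusted p = 0.187). The day 6 call of BST2 was lost without either 12.5% library (differences of 0.977 and 0.731) or without replicate 1 or 2 of 100% (adjusted p = 0.0668 and 0.08). That of SHFL was lost without any of the 5 libraries compared (adjusted p from 0.0506 to 0.26) and in 3 of the other settings.

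Of 17 genes of MHC class I presentation, which interferons raise through IRF1 and NLRC5, 4 rose and 5 fell at 0% on day 3 (14.8% and 16.1% of all genes), and 4 rose and 0 fell at 12.5% on day 6 (10.8% and 11.1%). B2M, the light chain of class I molecules, rose 1.33-fold at 0% (adjusted p = 6.43e-06), and the immunoproteasome subunit PSMB10 1.61-fold (adjusted p = 1.39e-05). At 0% the immunoproteasome subunit PSMB9 fell from 712.8 to 369.9 (-0.94, SE 0.12, adjusted p = 6.07e-07) and the peptide transporter TAP2 from 1566 to 967.8 (-0.70, SE 0.11, adjusted p = 1.99e-05). NLRC5 fell by 0.754 (adjusted p = 0.0157), a call lost without either 100% library (0.0774 and 0.0831), under quantile normalization (0.0692) and with library position in the fit (0.666). At 12.5% on day 6, PSMB9 (-0.050) and TAP2 (-0.058) did not pass. The proteasome activator subunit PSME2 rose by 0.27 there (adjusted p = 0.0219), a call lost without any of 4 of the 5 libraries compared (adjusted p from 0.0514 to 0.216).

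**Figure D4:**
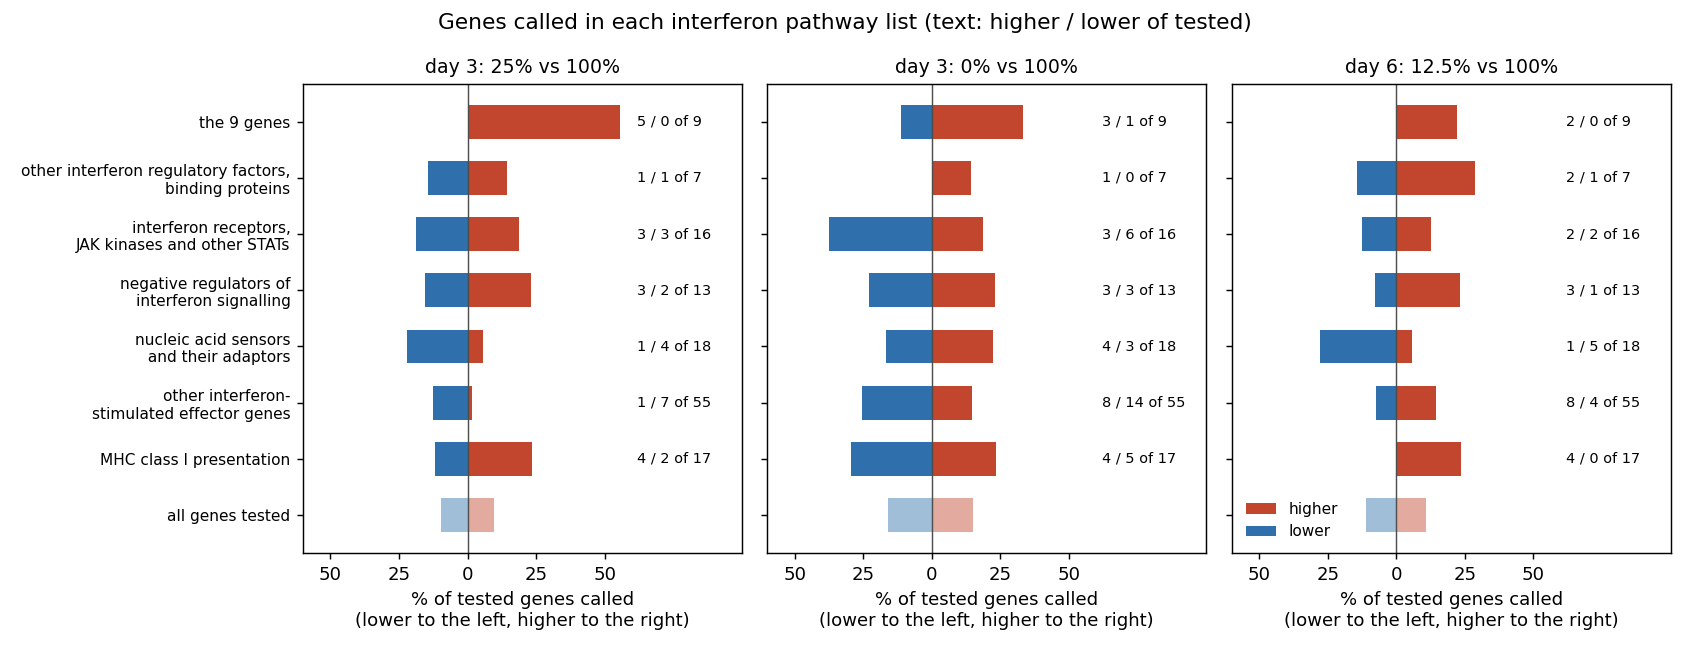
Percent of the tested genes of each interferon pathway list that were called higher (right) or lower (left) against 100% histidine in 3 comparisons, with all genes tested in paler bars and counts as text. The 9 genes have 5 higher and 0 lower at 25% on day 3, and the effector genes have 8 higher and 14 lower at 0% on day 3 and 8 higher and 4 lower at 12.5% on day 6.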

How the data were processed

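RNA of 25 Jurkat libraries was analysed from 1 table of 36755 genes. Total RNA went into strand-specific libraries, per the labels' protocols. The submitters' processing notes list FastQC 0.11.9, kallisto 0.50.1, DESeq2 1.44.0 and GRCh38. What each tool did, which annotation was used and whether counting used strand is not given in the sources used here. A normalized signal is what the authors deposited, under the name of DESeq2 normalized counts. Whole reads were not recovered (5.93% to 80.5% of low values came out whole at a tolerance of 0.1), so no count model was run and depth gives no interval.

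log2(value + 1) was fitted with limma 3.58.1 (R 4.3.3, statmod 1.5.0), a mean per group over 9 groups, with intensity trend and robust moderation, on the 22994 genes that reached 10 in 2 or more libraries. P-values were adjusted by Benjamini-Hochberg within each of 19 comparisons, and 0.05 was the threshold. The pseudocount understates the change of low genes. The fit was tested on simulated data. Coordinates and shared 31-base words came from GENCODE 29 (GRCh38), which may differ from the authors' annotation, and promoters from RefSeq (GRCh38.p14).

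The members, the pathway and marker lists and the rule for named genes were chosen with earlier results of these data known. The rule named all 9 members, and from each pathway list at most the 4 called genes with the largest difference (mean of at least 50) at 0% on day 3 and at 12.5% on day 6. It also named the 3 genes most like each changed member. Alternatives were pseudocounts of 0.5 and 10, no filter or a mean of at least 50, total-sum and quantile scaling, only the compared groups, no trend or robust moderation, the replicate number as a block, the submitters' library number modulo 8 ("library position"), and each library left out. What determines the library number is not given in the labels. Its use modulo 8 was chosen because it had mattered in earlier results of these data. Library position puts further terms into a fit with 2 or 3 libraries per group, which leaves fewer degrees of freedom for the spread. Leaving out 3 libraries of day 6 together (replicate 3 of 100%, replicate 3 of 50%, replicate 2 of 25%) was added after seeing the data. Leaving out a library of a group outside a comparison keeps the log2 difference of that comparison. Such settings change only the spread and the adjusted p-values, so counts of settings passed include many that hardly test a call.

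Other marker lists were summed as well: myeloid 222.8 to 443.1, epithelial 206 to 443.4, fibroblast 2332 to 13310 and hepatocyte 69.15 to 341. Some genes of these lists are not reported here by name.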

Additional observations from a re-analysis of the deposited data

Results flagged for a closer look

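The effect of 12.5% histidine on IRF7 differed between the days, by -1.35 on the log2 scale (SE 0.281, adjusted p = 0.00567 in limma). IRF7 at 12.5% was 3.13-fold of its level at 100% on day 3 (higher in 3 of 3 libraries) and 1.27-fold on day 6 (higher in 2 of 2 libraries), where the difference did not pass (adjusted p = 0.253). In 35 of 36 settings the difference between days passed, and without replicate 3 of 100% on day 3 it was -0.943 (adjusted p = 0.0602). Settings that left out a library of a group not compared kept the same log2 difference. IRF7 at 100% was itself 2.13-fold higher on day 6 than on day 3.

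The effect of 12.5% on ISG20 also differed between the days, by -0.765 (SE 0.205, adjusted p = 0.0347). ISG20 was 1.8-fold higher than at 100% on day 3 and at 1.06-fold on day 6, which did not pass (adjusted p = 0.74). The difference passed in 23 of 36 settings. It was lost without replicate 1 of 100% (-0.554, adjusted p = 0.255) or replicate 2 or 3 of 12.5% on day 3 (0.0705 and 0.0621), without replicate 1 or 3 of 100% (0.0568 and 0.0872) or either 12.5% library on day 6 (0.0931 and 0.142), and in 6 further settings with an adjusted p between 0.0518 and 0.101.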

How the results depend on the processing

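Over 36 settings and 3240 results of single members (against 100% and effects between days), none turned a called difference to the other sign, 48 calls were lost, 17 were gained and 87 uncalled differences changed sign. The calls of IRF1, IRF3, IRF7 and ISG20 at 25% and 12.5% on day 3, of IRF3, IRF7 and ISG15 at 0%, and of IRF3 and ISG15 at 25% on day 6 held in all 36. The number of members called moved as follows. At 25% against 100% on day 6 it was 3 with only the compared groups, 2 with library position and 3 without 3 libraries of day 6 (5 in the text), and at 12.5% 1 in each of these (2 in the text). From 25% to 12.5% on day 3 it was 0 under total-sum scaling, quantile scaling or library position, from 12.5% to 0% 1 with library position, and from 50% to 25% on day 6 1 with library position or without the 3 libraries. For day 6 against day 3 it was at 100% 3 with the mean filter of 50, 4 with total-sum scaling, 3 with quantile scaling and 2 with only the compared groups, at 50% 3 without the 3 libraries, and at 12.5% 2 with the mean filter. For the effect of 25% between days it was 1 with the mean filter or total-sum scaling. For the effect of 12.5% between days it was 1 with no filter, quantile scaling, only the compared groups, the replicate block, library position or without the 3 libraries.

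Leaving out each library in turn gave 4 to 6 members at 25% and at 12.5% against 100% on day 3, 4 to 5 at 0%, 4 to 5 at 25% and 0 to 2 at 12.5% on day 6. It gave 4 to 7 from 50% to 25%, 0 to 1 from 25% to 12.5% and 2 to 4 from 12.5% to 0% on day 3, and 1 to 3 from 50% to 25% on day 6. Between days it gave 0 to 2 at 100%, 3 to 5 at 50%, 0 to 1 at 12.5%, 0 to 1 for the effect of 25% and 1 to 2 for that of 12.5%. Replicate numbers are not described as pairs: deviations of libraries with the same number correlated between -0.106 and 0.192 (median 0.00128, 92 pairs), and 7 of 25 libraries correlated best with their own number. With the replicate block, STAT2 was no longer called between days at 50% (4 members), ISG20 was lost as given above, and no other call of a member changed. CISH and TLR3 at 0% on day 3 were lost too (adjusted p = 0.0508 and 0.073). Of all genes, 238 were called from 25% to 12.5% on day 3 with library position and 1232 with quantile scaling, against 1889 in the analysis reported. With library position it was 2350 (4490 as reported) at 25%, 4725 (7123) at 0%, 3183 (5475) from 50% to 25% and 2723 (4818) from 12.5% to 0% on day 3, 3012 (4645) at 25% and 2432 (4807) from 50% to 25% on day 6. It was 720 (1991) at 100% and 1214 (3172) at 12.5% between days, and 407 (1086) and 549 (836) for the effects of 25% and 12.5%. Without replicate 3 of 100% on day 3, 588 were called between days at 100% and 2954 at 25% on day 3, and without replicate 2 of 12.5% on day 6, 3175 (5036) at 12.5% on that day and 379 for its effect between days. The cause of these changes was not tested. With 2 libraries at 100% on day 3 and 2 at 12.5% on day 6, single libraries decide many calls, and leaving one out assumes that the other varies like the other groups. Read depth is unknown, so counting error is not known for any value.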
